A study of Mus musculus with 8 samples.

Results

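The regulatory T cell and checkpoint genes described here are 10 genes, Foxp3, Ikzf2, Ctla4, Cd28, Lag3, Tnfrsf4, Tnfrsf18, Tnfrsf9, Entpd1 and Nt5e. They were taken as every probe set whose platform gene symbol is one of these names, which gave 14 of the 22690 probe sets on the array and 10 of its 12394 named genes. Cd28 and Entpd1 have 2 probe sets each, Tnfrsf9 has 3, and the other genes have 1. The study measured expression in CD4-negative CD8-negative (double-negative) mouse cells sorted from the spleen, where they are called thymus emigrants, and from the thymus, where they are called thymocytes. All mice were female C57BL/6 animals 6 to 8 weeks old. They received TCDD (2,3,7,8-tetrachlorodibenzo-p-dioxin, a long-lived compound that binds the aryl hydrocarbon receptor, or AhR) in a dose of 10 µg/kg in corn oil, or corn oil alone, by intraperitoneal injection. FITC, a fluorescent dye that marks cells where it is injected, was given into the thymus 5 days later, and cells were sorted after another 24 h. The 4 groups were emigrants after TCDD, emigrants after oil, thymocytes after TCDD and thymocytes after oil, with 2 arrays each.

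Regulatory T cells restrain immune responses and are set up by the transcription factor Foxp3. They carry high amounts of the inhibitory receptor CTLA-4, of the TNF receptor family members GITR (Tnfrsf18) and OX40 (Tnfrsf4), and of the ectoenzymes CD39 (Entpd1) and CD73 (Nt5e), which turn extracellular ATP into adenosine. Most arise in the thymus at the CD4-positive stage, after the double-negative stage profiled here, while the receptors among these genes are also found on other activated T cells and on NK cells. AhR ligands are known for their influence on regulatory T cells in peripheral tissue.

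AhR binds DNA at a core motif, GCGTG, which reads CACGC on the other strand. The 300 bases around the start of transcription (250 before and 50 after) were available from RefSeq (build GRCm38.p6) for 10 starts of 7 of the genes. The motif was present on either strand in 4 of these 10 windows, in the genes Foxp3, Entpd1 and Nt5e, and in 32.4% of the 32851 windows of all genes. The windows of Foxp3, the lineage factor, and of Nt5e are shown with the motif in capitals, and that of Entpd1 is not shown. Nt5e was picked because its interval after TCDD, not adjusted for the number of probe sets, lay above 0 in emigrants. It did not pass the test over all probe sets. The window of Tnfrsf18, the member with the widest difference between emigrants and thymocytes, is shown as an example without the motif. All lie on the plus strand. A match describes these letters only and is not a bound site.
Foxp3, first start, chrX:7579426-7579725: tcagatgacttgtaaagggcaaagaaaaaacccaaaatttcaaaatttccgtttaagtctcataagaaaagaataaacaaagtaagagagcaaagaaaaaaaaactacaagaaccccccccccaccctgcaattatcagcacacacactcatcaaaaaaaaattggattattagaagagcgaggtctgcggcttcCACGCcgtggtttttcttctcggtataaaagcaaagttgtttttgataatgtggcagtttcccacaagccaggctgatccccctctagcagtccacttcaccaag
Foxp3, second start, chrX:7580233-7580532: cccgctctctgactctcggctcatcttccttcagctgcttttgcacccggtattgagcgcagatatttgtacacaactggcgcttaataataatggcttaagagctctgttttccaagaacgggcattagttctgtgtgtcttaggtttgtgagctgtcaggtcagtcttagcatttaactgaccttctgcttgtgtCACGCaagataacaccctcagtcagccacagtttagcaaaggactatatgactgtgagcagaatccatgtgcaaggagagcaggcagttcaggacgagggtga
Nt5e, chr9:88327359-88327658: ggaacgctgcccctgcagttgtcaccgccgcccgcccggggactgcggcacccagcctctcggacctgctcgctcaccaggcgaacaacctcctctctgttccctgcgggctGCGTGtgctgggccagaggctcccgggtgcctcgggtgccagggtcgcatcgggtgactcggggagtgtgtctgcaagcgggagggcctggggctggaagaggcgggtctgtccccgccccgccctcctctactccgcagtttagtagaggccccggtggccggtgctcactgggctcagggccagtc
Tnfrsf18, chr4:156026072-156026371: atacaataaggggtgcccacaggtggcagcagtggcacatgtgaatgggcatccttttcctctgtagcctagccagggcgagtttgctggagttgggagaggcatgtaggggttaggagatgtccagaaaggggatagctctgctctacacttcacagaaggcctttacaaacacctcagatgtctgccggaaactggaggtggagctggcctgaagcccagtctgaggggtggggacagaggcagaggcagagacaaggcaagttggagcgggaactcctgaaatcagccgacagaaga

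Some labels disagree. The emigrant array titled oil 1 has a Treatment field that names TCDD, that of oil 2 reads "Dioxane 2", and the description of the TCDD thymocyte arrays speaks of oil only. For some emigrant arrays the tissue is entered as thymus. Groups follow the titles here. The Treatment field also gives TCDD as 10 nM, which is not the injected dose. As a check, 5 genes known to respond to AhR were read (Cyp1b1, Tiparp, Scin, Ahrr and Cyp1a1). The TCDD arrays exceeded the oil arrays without overlap for 5 in emigrants (median log2 difference 2.21) and for 4 in thymocytes (1.5). Of all probe sets, 13.7% did so in emigrants and 9.69% in thymocytes. The gap was narrow for Cyp1a1 in emigrants, at 4.22 in TCDD 1 and 4.2 in oil 1, both below their array medians. None of the 5 genes passed the limma test over all probe sets in either source. Scin, an actin-severing protein, was at 9.97 and 6.30 in TCDD emigrants and at 4.88 and 4.87 in oil emigrants, the array with the conflicting field being the first of these. The labels leave unsaid whether replicate arrays stand for different animals. The p-values therefore set a group difference against the spread of these arrays within groups, and that spread may be technical. The number of arrays limits the precision of every value.

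The sorted populations carried T cell genes and were not uniform. Cd3e, a chain of the T cell receptor complex, lay between 8.30 and 8.91 in the emigrant arrays and between 8.09 and 8.34 in the thymocyte arrays. Of the 5 listed regulatory T cell markers (Foxp3, Il2ra, Ctla4, Ikzf2 and Tnfrsf18), 1 to 3 were above the array median in each emigrant array and 3 in each thymocyte array. Their mean level was 5.14 to 5.67 in emigrants and 5.65 to 5.99 in thymocytes. For emigrants over thymocytes, the log2 difference was -2.39 for Il2ra, which is also a double-negative thymocyte marker. It was -0.28 for Ctla4, -0.20 for Foxp3, 0.10 for Ikzf2 and 0.82 for Tnfrsf18. Foxp3 and Ikzf2 were among those below the median on all 8 arrays, so the defining marker of regulatory T cells was not shown to be above background in these samples. In such bulk samples, fewer cells of a type and less RNA per cell cannot be told apart.

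Levels are given as the deposited log2 values, where a step of 1 is a factor of 2 in signal. The array medians ran from 4.81 to 4.91, and no detection call was used. A probe set below the median of its array is called dim here, and no fold is given where both arrays of a group were dim. The interval of a dim probe set describes its signal and does not bound a change of the transcript. Levels are compared between arrays for 1 probe set at a time, and not between genes.

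**Figure D1:**
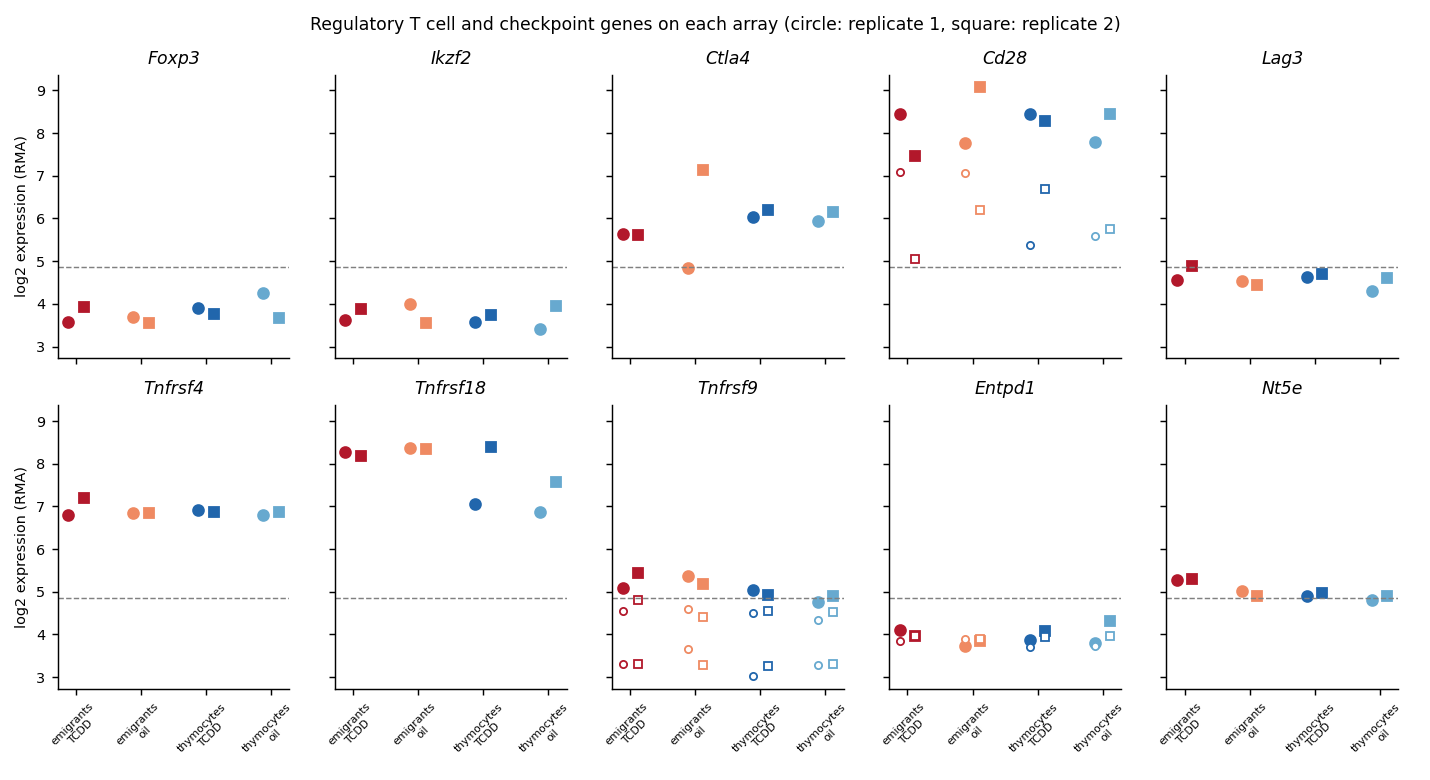
Log2 expression (vertical axis) of the 10 genes on each of the 8 arrays, by group along the horizontal axis. Circles are replicate 1 and squares replicate 2, filled symbols are the brightest probe set of a gene, open symbols its other probe sets, and the dashed line is the mean of the array medians. Foxp3, Ikzf2 and Entpd1 stay below the line on every array, Tnfrsf18 is near 8.3 in all emigrant arrays, and Ctla4 spreads most within the oil emigrants.

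Foxp3, the lineage-defining factor of regulatory T cells, was at 3.57 and 3.93 in TCDD emigrants, against 3.70 and 3.54 in oil emigrants. In thymocytes it was at 3.90 and 3.76 after TCDD, against 4.25 and 3.66 after oil. All 8 values were dim, and the groups overlapped in both sources. The log2 difference for TCDD was 0.13 in emigrants (95% interval -0.44 to 0.70) and -0.13 in thymocytes (-0.70 to 0.44).

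Ikzf2 encodes Helios, a zinc-finger factor of the Ikaros family that many thymus-derived regulatory T cells carry. It was at 3.62 and 3.87 in TCDD emigrants, against 4.0 and 3.56 in oil emigrants, and at 3.57 and 3.74 in TCDD thymocytes, against 3.41 and 3.95 in oil thymocytes. These values were also dim on all 8 arrays, with overlap between TCDD and oil in both sources. The log2 difference was -0.03 in emigrants (95% interval -0.63 to 0.56) and -0.03 in thymocytes (-0.62 to 0.56).

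Ctla4 and Cd28 are neighbours on chromosome 1 that share the ligands CD80 and CD86 and act in opposite ways, CTLA-4 as a brake and CD28 as the costimulatory receptor. Ctla4 was at 5.63 and 5.61 in TCDD emigrants, against 4.84 and 7.13 in oil emigrants. The oil emigrant arrays held both the lowest and the highest value of the 8. The mean level of 5 double-negative thymocyte markers in the oil emigrants was 5.55 in the first and 7.57 in the second. It also differed between the TCDD emigrants, at 6.24 and 4.99, where Ctla4 was level, and it was 8.69 to 9.08 in thymocytes. All 5 markers were higher in the second oil emigrant array, by far the most for Rag1 (3.89 and 9.81). Between the TCDD emigrants the gap was widest for Dntt (11.62 and 6.09), and Il2ra went the other way (5.11 and 6.12). The part of this marker level in the Ctla4 values was not tested. In thymocytes Ctla4 was at 6.04 and 6.19 after TCDD, against 5.94 and 6.16 after oil, a narrow band in which the groups overlapped. The log2 difference was -0.37 in emigrants (SE 0.662, 95% interval -1.97 to 1.24), and it became 0.78 with oil 2 left out and -1.51 with oil 1 left out. In thymocytes it was 0.07 (95% interval -1.54 to 1.67), an interval that carries the spread of the oil emigrants because all groups share 1 estimate.

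The brighter probe set of Cd28 was at 8.45 and 7.47 in TCDD emigrants, against 7.77 and 9.07 in oil emigrants. Thymocytes had 8.44 and 8.29 after TCDD, against 7.79 and 8.44 after oil. All 8 values were above the array median, and TCDD and oil overlapped in both sources. The log2 difference was -0.46 in emigrants (SE 0.510, 95% interval -1.70 to 0.78) and 0.25 in thymocytes (SE 0.510, 95% interval -0.99 to 1.49). Leaving out single arrays moved the emigrant difference between -1.11 and 0.19, and it was above 0 without oil 2 (0.19) or without TCDD 2 (0.03).

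The other Cd28 probe set was at 7.09 and 5.04 in TCDD emigrants, against 7.07 and 6.20 in oil emigrants. In thymocytes it was at 5.37 and 6.68 after TCDD, against 5.58 and 5.75 after oil. The TCDD difference of this probe set was -0.57 in emigrants and 0.36 in thymocytes (SE 0.743 in each source). The signs were those of the brighter probe set (-0.46 and 0.25), and each difference was smaller than its SE. Between replicates the probe sets followed each other only in part. The order of the replicates was the same in TCDD emigrants and oil thymocytes. It was opposite in oil emigrants and TCDD thymocytes.

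Lag3 encodes an inhibitory receptor that binds MHC class II. It was at 4.57 and 4.88 in TCDD emigrants, against 4.53 and 4.45 in oil emigrants, and at 4.64 and 4.70 in TCDD thymocytes, against 4.29 and 4.61 in oil thymocytes. The TCDD arrays were the higher pair in each source, by log2 differences of 0.24 in emigrants (95% interval -0.18 to 0.65) and 0.22 in thymocytes (-0.20 to 0.64). All 8 values were dim, and both intervals include 0.

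The TNF receptor family members among these genes are costimulatory receptors of activated T cells, and all 3 lie on chromosome 4. Tnfrsf18, which encodes GITR, was at 8.28 and 8.18 in TCDD emigrants, against 8.38 and 8.34 in oil emigrants. Thymocytes had 7.05 and 8.39 after TCDD, against 6.87 and 7.57 after oil. Both TCDD emigrant arrays lay just below both oil emigrant arrays, while the thymocyte groups overlapped over a wide range with TCDD 2 at the top, level with the oil emigrants. The TCDD difference was -0.13 in emigrants (SE 0.444, 95% interval -1.20 to 0.95) and 0.50 in thymocytes (SE 0.444, 95% interval -0.58 to 1.58). The emigrant interval carries the spread of the thymocytes because all groups share 1 estimate. The SD was 0.0642 and 0.0263 in TCDD and oil emigrants, against 0.948 and 0.494 in TCDD and oil thymocytes. In thymocytes the TCDD difference was -0.17 without TCDD 2, which sets TCDD 1 against the mean of both oil arrays. By contrast, TCDD exceeded oil by 0.18 between the thymocyte arrays numbered 1 and by 0.82 between those numbered 2. Cd8a, a coreceptor chain that the sort gated out, was at 5.05 and 7.14 in TCDD thymocytes and 5.15 and 6.66 in oil thymocytes. It was high in the same thymocyte arrays as Tnfrsf18. In emigrants Cd8a was at 6.18 and 6.24 after TCDD and at 4.57 and 5.84 after oil, while Tnfrsf18 stayed between 8.18 and 8.38. The part of such cells was not tested.

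Tnfrsf4, which encodes OX40, was the steadiest of the bright probe sets, at 6.80 and 7.19 in TCDD emigrants, against 6.84 and 6.85 in oil emigrants. It was at 6.92 and 6.88 in TCDD thymocytes, against 6.80 and 6.86 in oil thymocytes. All 8 arrays were above their medians. The groups overlapped in emigrants and not in thymocytes, where the log2 difference was 0.07 (95% interval -0.32 to 0.46), and it was 0.15 in emigrants (-0.24 to 0.54).

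The brightest probe set of Tnfrsf9, which encodes 4-1BB (CD137), was at 5.10 and 5.45 in TCDD emigrants, against 5.37 and 5.19 in oil emigrants. It was at 5.04 and 4.93 in TCDD thymocytes, against 4.77 and 4.91 in oil thymocytes. The log2 difference for TCDD was -0.01 in emigrants (95% interval -0.42 to 0.40) and 0.14 in thymocytes (-0.27 to 0.55). The other probe sets of the gene, dim on all arrays with levels of 4.35 to 4.81 and 3.03 to 3.67, differed by 0.09 and -0.15 in thymocytes, so the 3 did not share a direction there.

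Entpd1 and Nt5e act in sequence, CD39 removing phosphates from ATP and ADP and CD73 releasing adenosine from AMP. The brighter probe set of Entpd1 was at 4.11 and 3.97 in TCDD emigrants, against 3.72 and 3.84 in oil emigrants, and at 3.87 and 4.08 in TCDD thymocytes, against 3.80 and 4.32 in oil thymocytes. All were dim. The TCDD arrays were the higher pair in emigrants (log2 difference 0.26, 95% interval -0.23 to 0.75), and the groups overlapped in thymocytes (-0.09, interval -0.58 to 0.40). The other Entpd1 probe set stayed between 3.70 and 3.97 on the 8 arrays and differed by 0.01 in emigrants.

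Nt5e was at 5.28 and 5.31 in TCDD emigrants, against 5.02 and 4.89 in oil emigrants. Both TCDD arrays were higher, and the log2 difference of 0.34 had a 95% interval of 0.03 to 0.64 (SE 0.127, fold 1.26). It did not pass the test over all probe sets (limma adjusted p = 1). In thymocytes Nt5e was at 4.90 and 4.97 after TCDD, against 4.80 and 4.90 after oil, with a difference of 0.08 (95% interval -0.22 to 0.39). These levels are close to the array medians: Nt5e lay 0.12 and 0.04 log2 units above them in oil emigrants, and -0.01 to 0.11 from them in thymocytes. The mean level of 5 macrophage and monocyte markers was 7.67 and 7.69 in TCDD emigrants and 6.93 and 7.37 in oil emigrants. Csf1r, Lyz2 and Cd14 were higher in both TCDD emigrant arrays. Adgre1 (6.24 and 7.04 after TCDD, 5.61 and 7.36 after oil) and C1qa (5.40 and 6.34, 5.26 and 5.68) overlapped. The part of such cells in the Nt5e values was not tested.

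**Figure D2:**
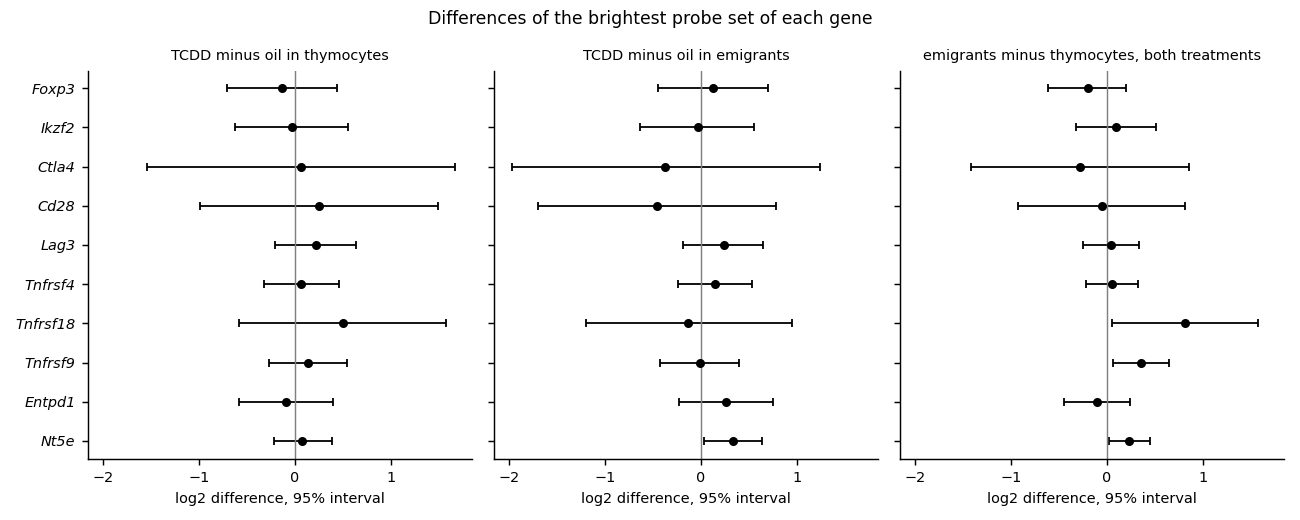
Log2 differences (horizontal axis) of the brightest probe set of each of the 10 genes in 3 comparisons, with 95% intervals from limma as bars. The intervals of TCDD against oil include 0 for all 10 genes in thymocytes and for all but Nt5e in emigrants. Those of emigrants against thymocytes lie above 0 for Tnfrsf18, Tnfrsf9 and Nt5e. In that comparison 3 of the 14 member probe sets and 3206 of all 22690 had an unadjusted limma p under 0.05.

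The first comparison asked which of these genes differ after TCDD in thymocytes. None of the 14 probe sets passed the limma test at an adjusted p of 0.05, and 0% of all 22690 did (0 member probe sets and 312 of all at an unadjusted p under 0.05). Of the 14, 9 had a higher and 5 a lower mean after TCDD, with a median log2 difference of 0.08, beside 0.00 over all probe sets. The TCDD arrays were wholly above the oil arrays for 3 of the 14 (Lag3, Tnfrsf4 and the brightest probe set of Tnfrsf9), where 9.69% of all probe sets did so, and below them for 1 (another Tnfrsf9 probe set), where 11% of all did. The differences of these 4 were between -0.15 and 0.22 on the log2 scale.

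The same question in emigrants gave no call either, among the 14 or among all probe sets (0%, with 1 member and 273 probe sets in all at an unadjusted p under 0.05 in limma). The member was Nt5e. Of the 14, 7 had a higher and 7 a lower mean after TCDD, with a median difference of 0.00, beside 0.02 over all probe sets. The TCDD arrays were wholly above the oil arrays for 3 (Lag3, the brighter probe set of Entpd1, and Nt5e), beside 13.7% of all probe sets, and below them for 1 (Tnfrsf18), beside 10.9% of all. Among the brighter members the interval of Ctla4 was wide, from -1.97 to 1.24.

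Whether the TCDD difference itself differed between the sources was tested as an interaction. No member passed, and 0% of all probe sets did (0 members and 290 probe sets at an unadjusted p under 0.05 in limma). The member with the smallest p was Nt5e, whose TCDD difference was 0.25 larger in emigrants than in thymocytes (95% interval -0.18 to 0.69, adjusted p = 1). The comparisons of TCDD with oil in each source share no arrays.

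Between the sources, 4 emigrant arrays were set against 4 thymocyte arrays over both treatments. No member passed the limma test, where 0.0617% of all probe sets (14 of 22690) did, 7 higher and 7 lower in emigrants. At an unadjusted limma p under 0.05 there were 3 of the 14 member probe sets and 3206 of all 22690. The widest difference among the members was that of Tnfrsf18, with a mean of 8.29 in emigrants and 7.47 in thymocytes, a log2 difference of 0.82 (SE 0.314, 95% interval 0.06 to 1.58, adjusted p = 0.315). All 4 emigrant arrays lay above 3 of the thymocyte arrays, and thymocytes TCDD 2, at 8.39, lay above all 4 emigrant arrays. The difference was 1.16 without thymocytes TCDD 2 and 0.49 without thymocytes TCDD 1.

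Among the brightest probe sets of each gene, that of Tnfrsf9 followed, with means of 5.28 in emigrants and 4.91 in thymocytes. Its difference was 0.36 (SE 0.120, 95% interval 0.07 to 0.65, limma adjusted p = 0.253). It was the only 1 of the 14 probe sets with all 4 emigrant arrays above all 4 thymocyte arrays, beside 6.13% of all probe sets, and 0 lay wholly below, beside 5.64%. Its other probe sets, dim on all arrays, differed by 0.11 and 0.16 in the same direction, within their spread. The brightest probe set lay -0.04 to 0.22 log2 units from the array median in the thymocyte arrays. Nt5e had means of 5.12 in emigrants and 4.89 in thymocytes, a difference of 0.23 (95% interval 0.02 to 0.45, adjusted p = 0.316).

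The intervals of the other members included 0 between the sources. The log2 difference was -0.20 for Foxp3 (95% interval -0.61 to 0.20), 0.10 for Ikzf2 (-0.32 to 0.51) and -0.10 for Entpd1 (-0.45 to 0.24), all dim on every array. Lag3, also dim on every array, differed by 0.04 (-0.25 to 0.34). The difference was -0.28 for Ctla4 (-1.41 to 0.86), -0.05 for the brighter probe set of Cd28 (-0.93 to 0.82) and 0.06 for Tnfrsf4 (-0.22 to 0.33). The other Cd28 probe set, above the median on all 8 arrays, differed by 0.50 (-0.77 to 1.78). Over the 14 probe sets 10 were higher and 4 lower in emigrants, with a median of 0.08, beside 0.03 over all.

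Within each treatment the source comparison also called 0% of all probe sets under oil and 0% under TCDD, and no member in either (2 members and 2029 probe sets at an unadjusted limma p under 0.05 under oil, 1 and 1686 under TCDD). Under oil the member with the smallest p was Tnfrsf9, at 0.44 (95% interval 0.03 to 0.85, adjusted p = 0.523). The other was Tnfrsf18, named after its values were seen, at 8.38 and 8.34 in oil emigrants and 6.87 and 7.57 in oil thymocytes, with a wider log2 difference of 1.14 (95% interval 0.06 to 2.21, adjusted p = 0.528). Under TCDD it was Nt5e, at 0.36 (95% interval 0.05 to 0.67, adjusted p = 0.613).

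Other cell markers moved with the sources. The mean level of the 5 listed double-negative thymocyte markers was 4.99 to 7.57 in emigrant arrays and 8.69 to 9.08 in thymocyte arrays. That of the 5 measured NK markers of 6 listed was 5.72 to 6.71 in emigrants and 5.43 to 5.85 in thymocytes. Only Klrd1 (7.16 to 9.64 in emigrants, 6.65 to 8.05 in thymocytes) and Eomes (5.22 to 8.22 in emigrants, 4.84 to 5.62 in thymocytes) carried this gap, while Ncr1 (4.73 to 5.23 and 4.72 to 5.04), Klrk1 (5.65 to 6.01 and 5.64 to 6.13) and Prf1 (4.93 to 4.98 and 4.82 to 5.16) lay in the same range in emigrants and thymocytes. The 4 measured B cell markers of 5 listed had means of 4.46 to 4.87 in emigrants and 5.45 to 6.18 in thymocytes, a gap carried by Ms4a1 and Cd79b, while Cd79a and Pax5 were dim in both sources. The part of these cells in the Tnfrsf18, Tnfrsf9 and Nt5e values was not tested.

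Further genes of these pathways were read from lists (the probe set with the highest mean for each gene), and none of their members passed the limma test in any of the 3 comparisons. Among regulators of the regulatory T cell programme, all 17 were measured, with medians of 0.02 for TCDD in thymocytes, 0.03 for TCDD in emigrants and 0.06 for emigrants over thymocytes, beside -0.01, 0.03 and 0.02 over all genes. The 3 with the smallest p between the sources were Stat5b, a transcription factor of IL-2 signalling (-0.59), Foxo1, a forkhead factor (1.25), and Runx1, a partner of Foxp3 (0.46).

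Of the surface and effector genes of regulatory T cells 14 of 16 were measured, with medians of 0.10, 0.03 and 0.09 in the same order. Itgae, the integrin chain CD103, was at 7.43 and 8.58 in TCDD thymocytes, against 5.52 and 6.14 in oil thymocytes (log2 difference 2.17, SE 0.392, adjusted p = 1). In emigrants it was level, at 7.47 and 7.69 after TCDD, against 7.39 and 7.41 after oil. Nrp1, a semaphorin receptor used as a marker of thymus-derived regulatory T cells, was at 8.26 and 8.89 in TCDD thymocytes, against 7.91 and 7.14 in oil thymocytes (1.05, adjusted p = 1). In emigrants the groups overlapped and the difference had the other sign, with levels of 6.64 and 6.10 after TCDD, against 6.04 and 7.48 after oil (-0.39, adjusted p = 1).

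Il2ra, the IL-2 receptor chain CD25 that both regulatory T cells and early thymocytes carry, was at 5.11 and 6.12 in TCDD emigrants and 4.77 and 5.78 in oil emigrants. Thymocyte levels were 8.47 and 7.88 after TCDD and 8.11 and 6.88 after oil. The emigrant and thymocyte arrays did not overlap, with a log2 difference of -2.39 (SE 0.404, adjusted p = 0.0757). Il2ra is itself among the double-negative thymocyte markers, which were also lower in emigrants. Klrg1, an inhibitory lectin receptor, differed by 0.72 and Il2rb, the IL-2 receptor beta chain, by 0.41.

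Other costimulatory and checkpoint receptors (15 of 18 measured) had medians of -0.02 and -0.04 for TCDD in thymocytes and emigrants. Their median between emigrants and thymocytes was 0.48, beside 0.02 over all genes, with 10 higher and 5 lower. Cd160, a receptor of cytotoxic lymphocytes that binds HVEM, was at 7.08 and 7.83 in TCDD emigrants and 7.03 and 6.46 in oil emigrants. It was at 5.46 and 5.68 in TCDD thymocytes and 5.31 and 5.10 in oil thymocytes, all below the emigrants (log2 difference 1.71, SE 0.216, adjusted p = 0.0614). Cd244a, an NK cell receptor, differed by 1.45, and Vsir, which encodes the checkpoint protein VISTA, by 1.89. Of the 5 NK markers, Klrd1 and Eomes were also higher in most emigrant arrays and the other 3 were not, and the part of NK cells in these values was not tested.

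Of the ligands 8 of 9 were measured, with medians of -0.01, 0.12 and 0.18. Lgals3, a galectin that binds LAG-3 among other glycoproteins, was at 8.44 and 9.60 in TCDD emigrants, against 7.14 and 8.34 in oil emigrants (log2 difference 1.28, SE 0.501, adjusted p = 1). Thymocyte levels were 7.88 and 8.17 after TCDD, against 6.67 and 6.38 after oil (1.51, SE 0.501, adjusted p = 1). The TCDD arrays were the higher pair in each source. Macrophages also carry Lgals3. Their 5 markers averaged 7.67 and 7.69 in TCDD emigrants, against 6.93 and 7.37 in oil emigrants, and 6.73 and 7.02 in TCDD thymocytes, against 6.86 and 7.28 in oil thymocytes. Of these markers, Adgre1 and C1qa overlapped between TCDD and oil emigrants, and Csf1r, Lyz2 and Cd14 did not. The part of macrophages in the Lgals3 values was not tested. Cd274, the PD-1 ligand, was at 6.90 and 7.27 in TCDD emigrants, against 7.22 and 8.26 in oil emigrants (-0.66, adjusted p = 1).

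Of the adenosine pathway 5 of 10 genes were measured. Ada, adenosine deaminase, which removes the adenosine that CD73 makes, was at 6.30 and 4.98 in TCDD emigrants and 5.34 and 5.65 in oil emigrants. Thymocyte levels were 7.76 and 7.68 after TCDD and 7.78 and 8.07 after oil. All 4 emigrant arrays lay below all 4 thymocyte arrays (log2 difference -2.25, SE 0.289, adjusted p = 0.0614). The list's median between the sources was -0.83, and for TCDD it was -0.20 in thymocytes and -0.01 in emigrants. The emigrant median became -0.42 when only probe sets above the median level were kept.

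**Figure D3:**
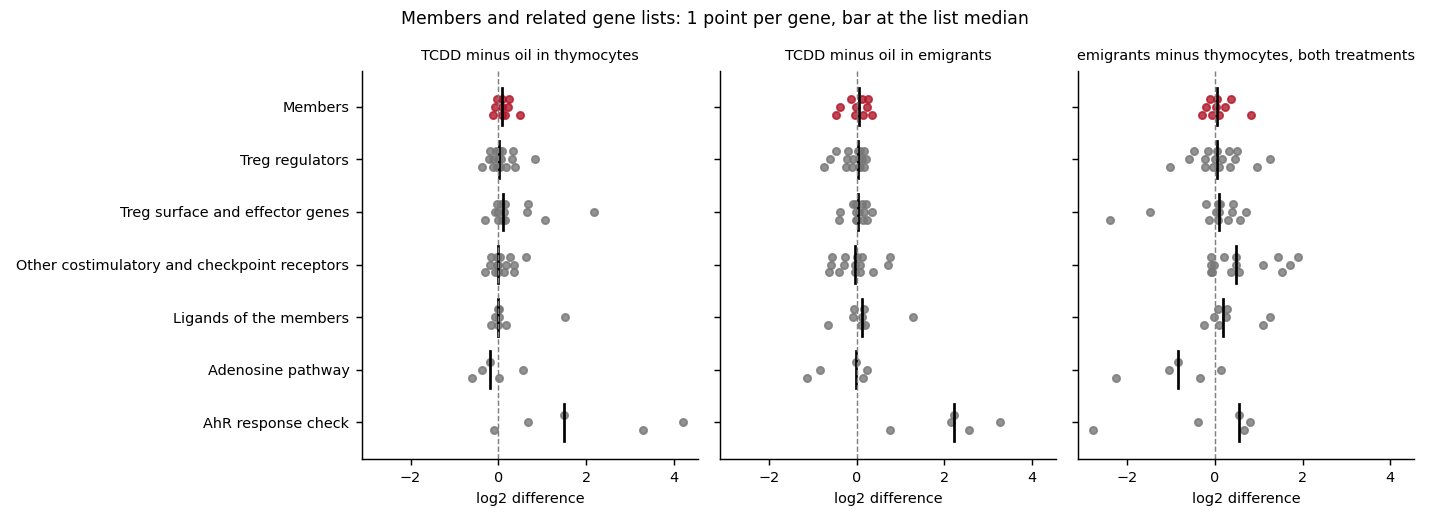
Log2 differences (horizontal axis) of the 10 members (red) and of the genes of 6 lists (grey), 1 point per gene, with a black bar at each median, in 3 comparisons. For TCDD the members lie near 0, between -0.46 and 0.50, while the 5 AhR response genes have medians of 1.5 in thymocytes and 2.21 in emigrants.

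Among members with a mean above the median of all probe sets, Ctla4 had the widest range over the 8 arrays, 2.29 log2 units. Of 836 other genes with a range of at least 2, the profiles most like it over the 8 arrays were those of Fignl1, Tubb2b, Vma21, Scd1 and Slc6a6, with Pearson correlations of 0.865, 0.835, 0.834, 0.810 and 0.810. Emigrants oil 1 was the lowest array for each of these but Scd1, and emigrants oil 2 the highest for each but Fignl1. Without these 2 arrays, which lie farthest from the median of Ctla4, the correlations over the other 6 were 0.802, -0.268, -0.184, 0.592 and 0.132. The likeness of Tubb2b, Vma21 and Slc6a6 therefore rested on the 2 oil emigrant arrays.

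**Figure D4:**
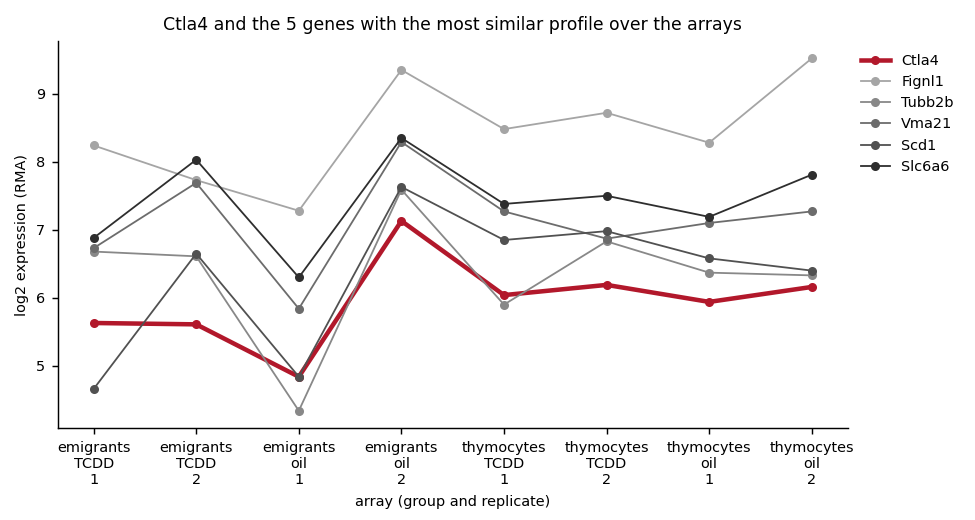
Log2 expression (vertical axis) of Ctla4 (red) and of the 5 genes with the most similar profiles (grey) on the 8 arrays (horizontal axis). Ctla4 is at 4.84 in emigrants oil 1 and at 7.13 in emigrants oil 2, and between 5.61 and 6.19 on the other arrays.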

How the data were processed

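The sorted cells' RNA was amplified and measured on Affymetrix arrays, per the labels' protocols. The values the authors deposited are on a log2 scale and cover 22690 probe sets. The submitters' processing notes name RMA without a version. RMA makes the arrays' distributions alike and compresses differences of dim probe sets. Gene symbols came from the platform annotation and were brought up to date by gene identifier with RefSeq tables (GRCm38.p6). A gene in a list is its probe set with the highest mean.

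A linear model with the 4 groups was fitted to all 8 arrays in limma 3.58.1 (R 4.3.3), with eBayes moderation over 4 residual degrees of freedom. Tests were two-sided with Benjamini-Hochberg adjustment over all probe sets and a threshold of 0.05. The residual SD of a probe set had a median of 0.214. The 95% intervals are those of limma, not adjusted for the number of probe sets. No filter was used, and the code was tested on simulated data. Members, lists and the rule for naming genes were chosen with earlier results of these data known. By that rule all members are described, differences are given for each gene's brightest probe set in 3 comparisons, and up to 3 genes with the smallest p per list and comparison are named. Alternatives were other normalizations, probe set summaries, a filter on dim probe sets, another prior, replicate blocks, fewer arrays and the Treatment field. Figures were drawn with matplotlib 3.10.9.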

Additional observations from a re-analysis of the deposited data

How the results depend on the processing

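No member passed the limma threshold under any alternative but 1: with a replicate block within each source, 1 member passed between emigrants and thymocytes (Tnfrsf18, difference 0.82, SE 0.129, adjusted p = 0.0191) and 1 under oil. That block takes the spread between replicate numbers within a source out of the error, so its SE and counts between sources leave that spread out. The labels do not say that numbers pair samples, though deviations of same-numbered TCDD and oil arrays correlated (0.524 in emigrants, 0.734 in thymocytes, -0.148 to 0.123 across sources). Of 518 alternative values of the 30 member differences, 480 kept direction and side of the threshold and 37 changed sign, 28 of them on leaving out an array. Many of the 518 could not change sign: blocks, another prior and leaving out an array outside the comparison keep the difference as it was. Most adjusted p-values of limma were also far above the threshold. The 480 are therefore not a measure of stability. The cause of the changes of sign was not tested.

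Changes of sign other than on leaving out an array were those of Cd28 between sources (0.06 after a second quantile normalization, 0.23 for the mean of probe sets, 0.24 by the Treatment field of emigrants oil 1), Ctla4 (0.16) and Lag3 (-0.01) between sources by that field, Lag3 after centring arrays (0.00), and TCDD in emigrants for Ikzf2 (0.27 by that field) and Tnfrsf9 (0.11 by that field, 0.00 for the mean of probe sets). Without single arrays, differences between sources ranged from -0.38 to 0.27 for Cd28, -0.85 to 0.29 for Ctla4, -0.23 to 0.02 for Entpd1, -0.04 to 0.23 for Ikzf2, -0.03 to 0.12 for Lag3 and -0.04 to 0.15 for Tnfrsf4. Those for TCDD in emigrants ranged from -1.11 to 0.19 for Cd28, -1.51 to 0.78 for Ctla4, -0.05 to 0.31 for Foxp3, -0.25 to 0.19 for Ikzf2, -0.05 to 0.35 for Tnfrsf4 and -0.18 to 0.17 for Tnfrsf9. In thymocytes they ranged from -0.07 to 0.57 for Cd28, -0.05 to 0.18 for Ctla4, -0.34 to 0.17 for Entpd1, -0.42 to 0.17 for Foxp3, -0.30 to 0.24 for Ikzf2 and -0.17 to 1.17 for Tnfrsf18. A group left with 1 array was assumed to vary like the others.

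The count of all probe sets past the threshold between sources, 14, was 34 after a second quantile normalization, 69 for gene means, 109 for bright probe sets, 6 with trend and robust settings, 203 with a replicate block, 2963 with the block within each source, 88 by the Treatment field, and 0 to 76 without single arrays. Counts of 0 became 1 (gene means), 1170 (block within source) and 1 (Treatment field) under oil. Under TCDD they became 1 (trend and robust), 357 (block within source), 16 (Treatment field) and 0 to 13 without single arrays. They became 1 for TCDD in emigrants and 1 for the interaction by that field, and 1 for TCDD in thymocytes with the block within source. Foxp3, Ikzf2, Lag3 and Entpd1 fall below the level filter and have no value under it. Of the list medians, 3 moved: with that filter those for TCDD of the adenosine pathway in emigrants (-0.42) and of regulatory T cell surface genes in thymocytes (0.66), and by the Treatment field that of other receptors in emigrants (0.34).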
